A study of Mus musculus with 4 samples.

Results

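The miR-379 cluster is a run of miRNA genes on mouse chromosome 12, read from 1 host lncRNA on the maternally inherited chromosome of the imprinted Dlk1-Dio3 domain. Its first gene is miR-379 and its last is miR-3072, with hairpins from chr12:109709060-109709125 (Mir379) to chr12:109747878-109747960 (Mir3072) in GRCm38. The chimeric reads described here are those listed with a cluster miRNA other than miR-379, whichever arm, and they were chosen by miRNA name from 37 gene numbers. Of these numbers 32 were listed, 16 of them with both arms, as 48 mature miRNAs (27 5p arms and 21 3p arms) among 1643 mature miRNAs in all. They held 510 of 29067 distinct chimeric reads. No read was listed with miR-411, miR-299b, miR-380, miR-1193 or miR-543, and 0 reads leave room for up to 3 reads in the 4 libraries together.

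The reads came from primary mouse mesangial cells (MMC), the contractile support cells of the kidney glomerulus, grown in RPMI medium with serum. No treatment of the cells is stated for these libraries. MMC of wild-type (WT) C57BL/6J mice were compared with MMC of miR-379KO mice, homozygous on the same strain for a small CRISPR-Cas9 deletion within miR-379, with 2 libraries each, A and B. In AGO2-CLASH, RNAs are cross-linked to AGO2, precipitated with it and ligated, so that a miRNA and its target are sequenced as 1 hybrid read. The labels give no ages. The study used adult male mice in a diabetes experiment with controls given diluent and names CLASH among the uses of their mesangial cells, and which mice gave these libraries is not given in the sources used here. The study calls A and B independent samples for the matching AGO2 libraries made without ligation, but separate cultures or animals are not named, and p-values may then measure only the technical spread between these libraries.

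miRNAs guide AGO2 to target RNAs mainly through their seed, bases 2 to 8 from the 5′ end, and a target site carries the reverse complement of it. A hybrid that holds a whole miRNA shows it in sense and over nearly its full length, joined to the target. The cluster with its host lncRNA has been described as raised in diabetic kidney. An alignment is called long here at 16 nt or more and short below that, and sense where it runs along the miRNA.

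The mature sequences of the cluster miRNAs that the results turn on are given below from RefSeq (GRCm38.p6), which held 46 of the 48, each identical to the sequence in the deposited pairing. Capitals mark the seed. The first group carried most reads, as short segments.
miR-494-3p: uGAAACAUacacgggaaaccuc
miR-377-5p: aGAGGUUGcccuuggugaauuc
miR-3072-5p: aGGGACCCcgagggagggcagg
miR-667-5p: cGGUGCUGguggagcagugagcacg
miR-495-5p: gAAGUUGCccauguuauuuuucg
miR-487b-5p: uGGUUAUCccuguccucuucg
miR-679-5p: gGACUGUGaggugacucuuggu
The second group carried most of the long sense segments.
miR-541-5p: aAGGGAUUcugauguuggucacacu
miR-667-3p: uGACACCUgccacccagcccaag
miR-154-5p: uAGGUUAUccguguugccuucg
miR-377-3p: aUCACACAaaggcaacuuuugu
miR-539-5p: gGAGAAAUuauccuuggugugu
miR-329-5p: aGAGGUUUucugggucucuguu
miR-494-5p: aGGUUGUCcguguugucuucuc
miR-485-5p and miR-376c-3p are given by name. Among the 48 sequences, miR-494-5p and miR-410-5p were the only pair with the same 7-base seed. The seeds of miR-377-5p and miR-329-5p share their first 6 bases.

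A few miRNAs held most of the reads. The 11 with at least 10 distinct reads over the 4 libraries had 423 of the 510 reads (82.9%), another 20 had 2 to 9 reads, and 17 had 1 read. Only 10 miRNAs were listed in all 4 libraries, whereas 22 were listed in a single library, 18 of them in WT A, the library with the most reads. Values by library are given below in the order WT A, WT B, then the 2 miR-379KO libraries A and B. The libraries held 14197, 4869, 4323 and 5678 distinct chimeric reads, of which the cluster took 209, 89, 81 and 131. Per 10000 distinct chimeric reads this was 147 (95% Clopper-Pearson interval 128 to 168) and 183 (147 to 225) in the WT libraries, and 187 (149 to 232) and 231 (193 to 273) in the miR-379KO ones. Such intervals cover counting error only. The means were 165 ± 25.2 (SD, n = 2) in WT and 209 ± 30.65 (SD, n = 2) in miR-379KO. WT B and miR-379KO A were almost level, and with 2 libraries against 2 an exact two-sided permutation test cannot go below 0.333, so no test was made. Beside the cluster, 27 mature miRNAs of the domain outside it held 200 distinct reads, 50.9 to 78.0 per 10000 by library.

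**Figure D1:**
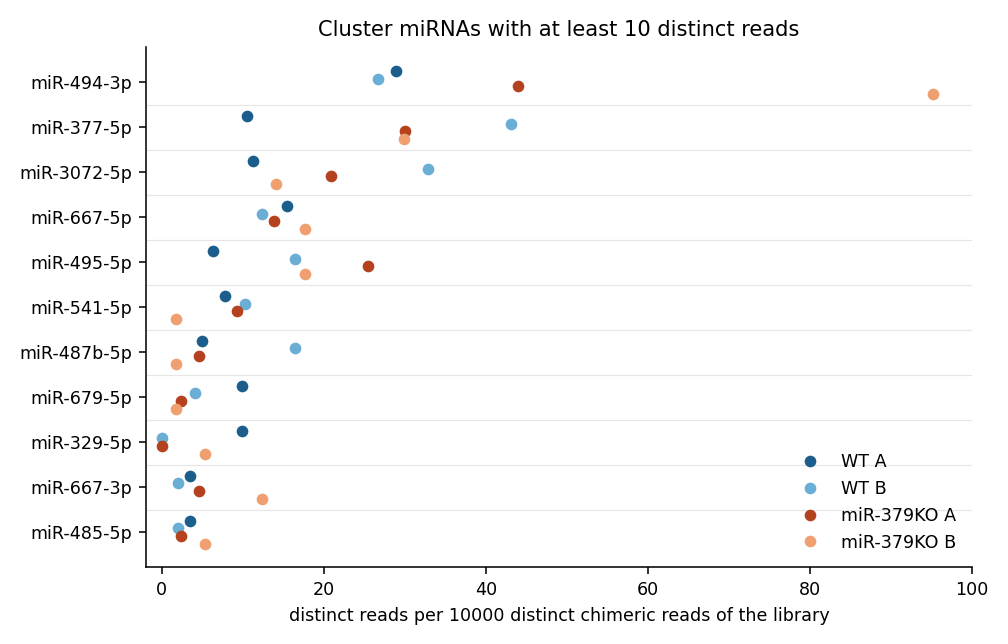
Distinct reads of each of the 11 cluster miRNAs with at least 10 distinct reads (rows), per 10000 distinct chimeric reads of the library (linear x axis). Each point is 1 library. miR-494-3p in miR-379KO B, at 95.1, stands far to the right of its other 3 libraries at 26.7 to 44.0.

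The cluster reads differed from those of other miRNAs in length and orientation. Long sense segments made up 31 of the 510 cluster reads (6.08%, interval 4.17 to 8.52), against 8284 of 29641 read and miRNA pairs of all other miRNAs (27.95%, interval 27.4 to 28.5). Short sense segments were 54.5% of cluster reads and short antisense segments 38.8%, against 41.7% and 27.8% for the others. Only 3 cluster reads had a long antisense segment. Long sense segments made up 2.87% and 5.62% of cluster reads in the WT libraries A and B, and 12.3% and 7.63% in the miR-379KO ones, below the 24.5% to 32.01% of the other miRNAs in each library. The segment covered the whole seed in 16.7% of cluster reads and in 42.7% of the others. The median alignment was 13 nt in the cluster and 14 nt elsewhere. The miRNAs of the domain outside the cluster were closer to it: the segment covered the seed in 12.5% of their 200 reads, 36.5% were short antisense and the median alignment was 13 nt. Their long sense segments were 31 of 200 reads, 26 of them of miR-770-5p.

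**Figure D2:**
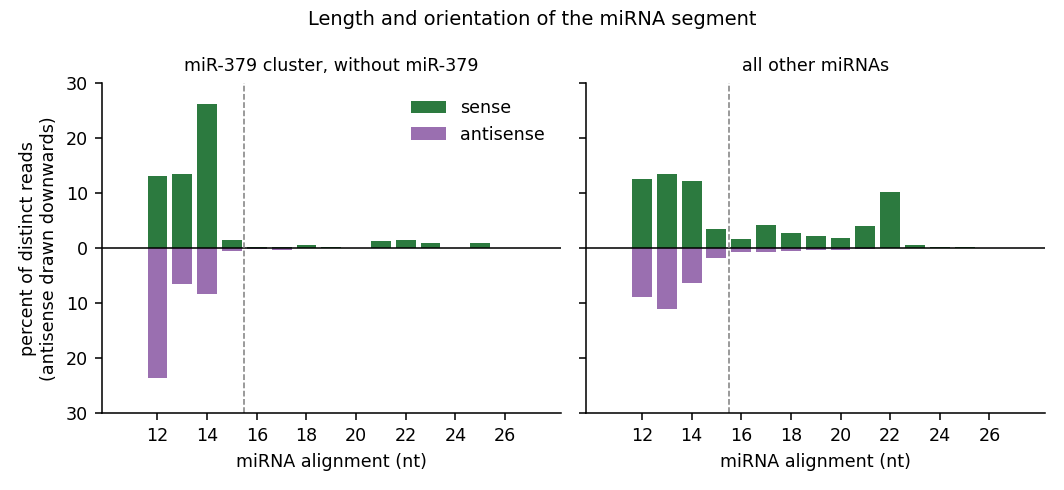
Percent of distinct reads (y axis, antisense drawn downwards) by length of the miRNA alignment in nt (x axis), for the cluster (left) and all other miRNAs (right). The dashed line separates short from long segments. The cluster has small sense bars right of the line (6.08% in sum), where the other miRNAs hold 27.95%.

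The short segments of the most frequent members fell on 1 or 2 fixed blocks of the miRNA, which for miR-494-3p, miR-377-5p and miR-495-5p lay outside the seed. miR-494-3p had 127 reads (41, 13, 19 and 54 by library), with the highest count in miR-379KO B. In 113 of them the segment was bases 9 to 22, and no segment was longer than 14 nt. miR-377-5p had 66 reads (15, 21, 13 and 17), 59 of them antisense to bases 11 to 22. miR-495-5p had 38 reads (9, 8, 11 and 10), 35 of them antisense to bases 12 to 23. miR-3072-5p had 49 reads (16, 16, 9 and 8), with 21 sense segments of bases 6 to 18 and 19 antisense segments of bases 4 to 17. Of its 49 segments, 6 matched the miRNA without mismatch or gap, against 127 of 127 for miR-494-3p. miR-487b-5p had 18 reads (7, 8, 2 and 1), 11 of them with bases 3 to 14. miR-667-5p (44 reads: 22, 6, 6 and 10) and miR-679-5p (18 reads: 14, 2, 1 and 1) had no such block. Their most frequent segments held 7 and 2 reads.

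**Figure D3:**
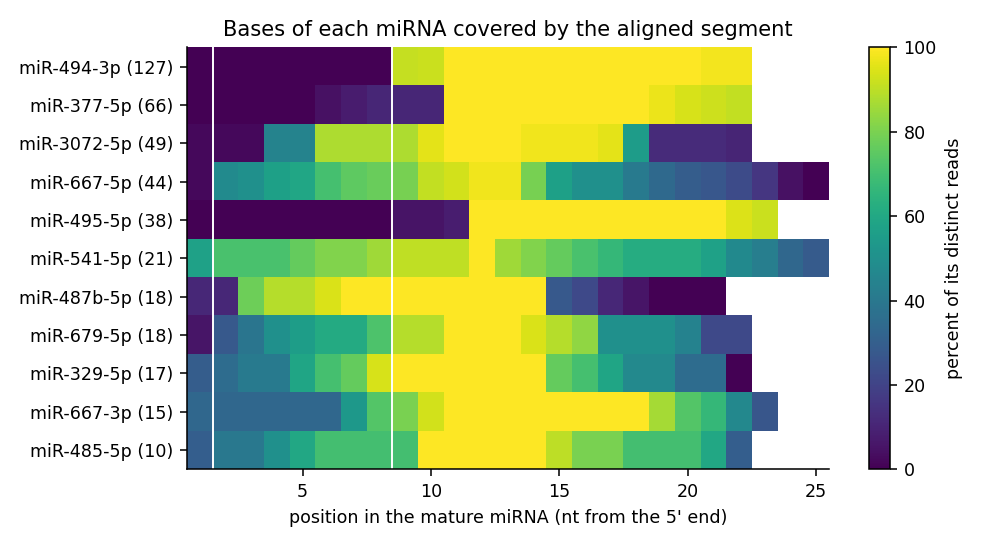
Percent of the distinct reads of each miRNA whose segment covers each position of the mature miRNA (x axis, nt from the 5′ end; number of reads in brackets), with the seed between the white lines. miR-494-3p, miR-377-5p and miR-495-5p are covered in their 3′ part and hardly in the seed, whereas miR-541-5p, miR-667-3p and miR-485-5p are covered along their whole length in part of their reads.

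The bases next to each block were fixed as well. The block, in capitals, is printed as it stands in the reads with the 10 bases of the read that most often followed it, or preceded it for miR-495-5p.
miR-494-3p bases 9 to 22: ACACGGGAAACCTCacccggcccg
miR-377-5p, antisense to bases 11 to 22: GAATTCACCAAGcgttggattg
miR-495-5p, antisense to bases 12 to 23: gaggtagtgaCGAAAAATAACA
miR-3072-5p bases 6 to 18: CCCCGAGAGAGGGgcccgtgcct
miR-3072-5p, antisense to bases 4 to 17: CCTCCCTCAGGGTCagggagccct
miR-487b-5p bases 3 to 14: GTTATCCCTGTCtgaaatgaca
The miR-494-3p block ends with the last base of the miRNA, and in 107 of the 113 reads (94.7%) the same 10 bases followed. The 24 bases occurred in GRCm38, outside miRNA genes, at chr17:39847610-39847633 and at chr1:156044253-156044276. The first lies in an rRNA gene of GENCODE vM21 that overlaps Gm42418 and AY036118, and the second in Tor1aip2. The miR-495-5p stretch (32 of 35 reads) occurred at chr17:39846866-39846887 in the same rRNA gene and at chr6:3200955-3200976. The miR-377-5p stretch (57 of 57 reads with 10 bases after the block) occurred at 6 loci, among them chr7:110059717-110059738 in AA474408 and chr9:123462048-123462069 in Lars2. The miR-487b-5p stretch (10 of 11 reads) occurred at 3 loci on chromosome 11, each in a snoRNA gene (Gm24253, Snord1c and Snord1b). The antisense miR-3072-5p stretch (18 of 19 reads) occurred once, at chr15:53271196-53271219 in Ext1. The sense stretch of miR-3072-5p, in 21 of 21 reads, had no exact match in the genome.

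The same comparison was made for every read: the miRNA segment with the 10 bases before it, or the 10 after it, was searched in GRCm38 as 1 unbroken stretch outside miRNA genes. It was found for 423 of the 510 cluster reads (82.9%), for 62.3% of the reads of other miRNAs, and for 78.5% of those of the domain miRNAs outside the cluster. By class it was found for 84.2% of short sense and 91.9% of short antisense cluster segments, but for 5 of 31 (16.1%) long sense segments. For other miRNAs the shares were 80.0%, 74.8% and 21.99%. Among the frequent members the share was 97.6% for miR-494-3p, 97.0% for miR-377-5p, 97.4% for miR-495-5p, 88.9% for miR-679-5p, 72.7% for miR-667-5p, 61.9% for miR-541-5p and 55.1% for miR-3072-5p. These shares need a match on 1 side only. With up to 10 bases on both sides of the segment in the same stretch, the match was found for 250 of 510 cluster reads (49.0%) and 44.2% of the reads of other miRNAs. On both sides, short sense cluster segments matched less often than those of other miRNAs (42.8% and 56.15%) and short antisense ones more often (63.6% and 53.9%). The both-sided share was 33.9% (43 of 127) for miR-494-3p, 54.55% for miR-377-5p and 73.7% for miR-495-5p, so that most miR-494-3p reads matched on 1 side only. Whether any of these reads holds the miRNA was not tested.

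The listed targets were as uneven as the miRNAs. A read can be listed with several genes, and 249 genes were listed with the cluster, 204 of them by 1 read. Of the 159 protein-coding genes, 138 had 1 read. Rn18s-rs5, a copy of 18S ribosomal RNA sequence, was listed with 162 cluster reads, AY036118 with 80, Gm26917 with 26 and Gm42418 with 11, all from a stretch of chromosome 17 with ribosomal RNA sequence (Gm26917 at chr17:39843013-39846341 and Gm42418 at chr17:39846958-39848788). The 8 most listed genes, these 4 with AA474408, Cdc26, Lars2 and Snord11, took 57.65% of cluster reads and 34.8% of all other reads. Rn18s-rs5 and AY036118 were aligned in sense in 1 read each. AY036118 is annotated on the minus strand, within the span of Gm42418 on the plus strand.

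The cluster reads of Rn18s-rs5 came from 12 miRNAs, 75 of its 162 from miR-494-3p, and those of Gm42418 from 6 miRNAs. Those of the next genes came mostly from 1 miRNA, but most of these genes had further reads with miRNAs outside the cluster. AA474408, a gene of unknown product, was listed with 50 cluster reads, 45 of them with miR-377-5p, and with 134 reads of other miRNAs, and by library it had 8, 17, 11 and 14. Cdc26, a subunit of the anaphase-promoting complex, was listed with 20 reads (8, 6, 4 and 2), every one antisense and with miR-3072-5p, and with no other miRNA in the series. Lars2, the mitochondrial leucyl-tRNA synthetase, had 13 (5, 6, 1 and 1), 12 of them with miR-487b-5p, and 382 reads with other miRNAs. Snord11, a C/D box snoRNA, had 12 (1, 3, 3 and 5), all with miR-495-5p, and 4 reads with other miRNAs. Pkd1, the polycystin-1 gene of polycystic kidney disease, had 6 reads (3, 1, 2 and 0), all with miR-667-5p, and 1 with another miRNA. Snhg5, a snoRNA host gene, had 5 (4, 1, 0 and 0), all with miR-541-5p, and 29 with other miRNAs. The cluster thus held 27.2% of the reads of AA474408, 14.7% of those of Snhg5 and 3.29% of those of Lars2.

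The 31 long sense hybrids came from 12 miRNAs and 22 genes, as 24 pairs of a miRNA and a gene. The segment was at least 18 nt in 29, started at base 1 in 26 and matched the miRNA without mismatch or gap in 25. The miRNA stood first in 21, and the target was in sense in 29. Each was sequenced once or, in 4 cases, more often, with 2 as the highest count, and the deposited minimum free energy of the pair ranged from -31.16 to -12.54 with a median of -20.59 (no unit is given in the files). Per 10000 distinct chimeric reads the WT libraries A and B had 4.23 (6 reads, interval 1.55 to 9.20) and 10.3 (5 reads, 3.335 to 23.95), and the miR-379KO libraries 23.1 (10 reads, 11.1 to 42.5) and 17.6 (10 reads, 8.45 to 32.4). Both miR-379KO libraries were above both WT libraries, but the interval of WT B overlapped those of both, that of WT A overlapped that of miR-379KO B, and no test was made. Long sense segments of other miRNAs took 25.2% of reads in WT A and 31.1% to 32.3% in the other 3 libraries. Near-identical reads of the same hybrid were counted separately, and counting them once left 6, 4, 9 and 9.

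**Figure D4:**
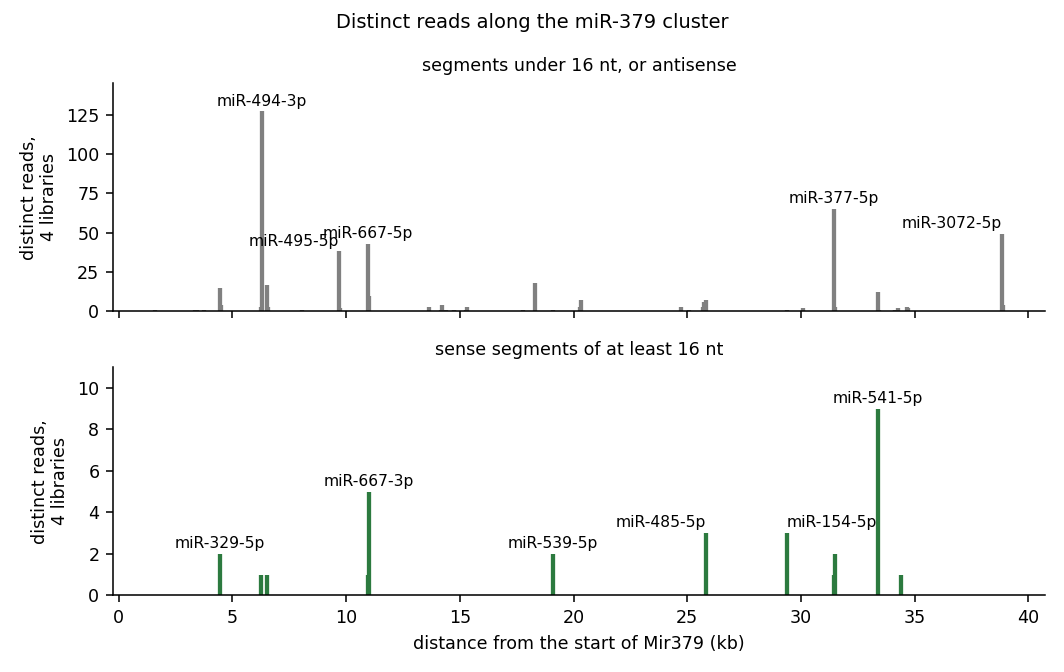
Distinct reads of each listed cluster miRNA (y axis, 4 libraries together) at its distance in kb from the start of Mir379 (x axis), for short or antisense segments (top) and long sense segments (bottom; the y scales differ). The 3 tallest short bars, led by miR-494-3p, have at most 1 long sense read each, and the tallest long sense bars are those of miR-541-5p (9), miR-667-3p (5), miR-485-5p (3) and miR-154-5p (3), with 8 other members at 1 or 2 reads.

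miR-541-5p had the most long hybrids, 9 of its 21 reads, 3, 4, 2 and 0 by library. Its targets included Eif4a2 (a translation initiation helicase), Acta2 (smooth muscle actin, 2 reads that differ by 1 base), Atp5b (a subunit of ATP synthase), Caprin1 (an RNA-binding protein of stress granules), Ero1l (an oxidase of the endoplasmic reticulum) and Gm42418 (2 reads). miR-667-3p had 5 (0, 1, 1 and 3), with targets that included Set (a histone chaperone), Dynll2 (a dynein light chain), Cnn2 (calponin 2) and AY036118. miR-485-5p had 3, with 2 in WT A on Ncoa6 and Taf4, both regulators of transcription, and 1 in miR-379KO B on Col1a2, a collagen I chain. miR-154-5p had 3, all in miR-379KO libraries and all on Gm42418. miR-377-3p had 2 in miR-379KO A on Myl6, a myosin light chain, and miR-329-5p had 2 in miR-379KO B on Inpp5a, an inositol phosphatase. miR-539-5p had 1 in each miR-379KO library, both on Gm26917. The last 5 were of miR-667-5p on Lhfp, miR-369-3p on Mbnl2, a splicing factor, miR-679-5p on Rn18s-rs5, miR-494-5p on Gm42418 and miR-377-5p on AA474408. Of the pairs outside the ribosomal and AA474408 loci, none was seen in more than 1 library.

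Of the sites, 7 lay in a 3′ UTR, 7 in coding sequence, 1 across the end of the coding sequence into the 3′ UTR, 1 across the 5′ UTR and coding sequence and 9 in a transcript with no coding sequence, each site being the paired part of the target, placed in GRCm38 and counted once. Sites with a match to bases 2 to 7 of the miRNA are printed on the strand of the transcript, with the match in capitals, extended to base 8 where that matched too. They show how a seed match lies in the site listed for a hybrid, and whether these reads hold the miRNA was not tested. The segments joined to Lhfp (miR-667-5p bases 2 to 19) and Mbnl2 (miR-369-3p bases 4 to 20) had a mismatch or gap. The 1 read of miR-369-3p also had a genome match on 1 side, outside miRNA genes.
Set, miR-667-3p, 3′ UTR, chr2:30071449-30071471: gcaagggtgggtttgAGGTGTCt
Dynll2, miR-667-3p, 3′ UTR, chr11:87981412-87981434: aggtggccgaggcgaAGGTGTCc
Eif4a2, miR-541-5p, coding and 3′ UTR, chr16:23113291-23113317: aatgtggctgacctaatttAATCCCTg
Ero1l, miR-541-5p, 3′ UTR, chr14:45284091-45284114: acatgacacaattgacAATCCCTa
Lhfp, miR-667-5p, coding, chr3:53043523-53043547: tccttccagggcatcccCAGCACCg
Mbnl2, miR-369-3p, 3′ UTR, chr14:120430779-120430798: tctcatctttatGTATTATt
Col1a2, miR-485-5p, 3′ UTR, chr6:4541384-4541393: aaCAGCCTCa
Myl6, miR-377-3p, 5′ UTR and coding, across an intron on chromosome 10: agccaagaTGTGTGAc
Gm26917, miR-539-5p, chr17:39843625-39843646: gctggccttggaaagTTTCTCg
Each site printed above except that of Gm26917 matches the 7 bases of the seed. The sites of Acta2, Inpp5a and Gm42418 hold no such match.
Acta2, miR-541-5p, coding, chr19:34243424-34243450: agtgtgatattgacatcaggaaggatc
Inpp5a, miR-329-5p, coding, across an intron on chromosome 7: cttcgacgacccagaaaacctgc
Gm42418, miR-154-5p, chr17:39847602-39847623: ttgactcaacacgggaaacctc
The last of these ends in the same bases as the miR-494-3p block, so the same stretch of letters was listed within the target of miR-154-5p and, in other reads, as the miRNA segment of miR-494-3p.

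A match to the seed was less frequent in cluster reads than in those of other miRNAs, and it differed by class. The reverse complement of bases 2 to 7 was looked for in every target segment listed with a read and its miRNA, as it stands in the read. A read counted as matched if any of these segments held it. It was found in 71 of 510 cluster reads (13.9%, interval 11.04 to 17.2). The same letters occurred in 1.37% of the distinct target segments of other miRNAs. That share is counted per segment and not per read, so the 2 values are not like for like. For other miRNAs the share of reads with a match was 23.8%. The cluster share was 14.4% and 8.99% in the WT libraries and 16.05% and 15.3% in the miR-379KO ones. Among long sense reads 12 of 31 matched (38.7%, interval 21.9 to 57.8), and 35.5% of those of other miRNAs. By library these 12 were 0 of 6, 2 of 5, 7 of 10 and 3 of 10. Short sense cluster reads matched in 12.9% and antisense ones in 11.4%, against 22.2% and 15.2% for the others. The files list only reads with a pairing energy, so the share of unrelated segments is a description of letter frequency and no test.

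Members differed widely in this share. miR-485-5p, whose seed match is AGCCTC, had it in 8 of 10 reads, miR-377-3p in 4 of 5 and miR-539-5p in 3 of 3. However, 5 of the 10 miR-485-5p reads were listed with AA474408 and 2 of the 3 miR-539-5p reads with Gm26917, and of the 3 long miR-485-5p hybrids only that with Col1a2 had the match. miR-667-3p had it in 4 of 15 reads and miR-667-5p in 9 of 44. In contrast, it was found in 13 of 127 reads of miR-494-3p, 4 of 66 of miR-377-5p, 3 of 49 of miR-3072-5p, 1 of 38 of miR-495-5p and 0 of 18 of miR-679-5p. The members with fixed blocks were thus among those with low shares. Reads listed with Rn18s-rs5, AY036118, Gm26917, Gm42418, AA474408 or Lars2, 6 genes with ribosomal RNA-like or very frequent sequence that were picked after their counts were seen, were 262 of 510 (51.4%), and 34.8% of other miRNAs' reads. They matched in 9 of 262 (3.44%), and the remaining 248 in 62 (25.0%).

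The miRNAs that the study discusses beside miR-379 differed between their arms. miR-495-3p, with the seed in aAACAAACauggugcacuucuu, had 2 reads, against 38 for miR-495-5p. miR-377-3p had 5 reads (0, 2, 2 and 1), against 66 for miR-377-5p, and 2 of the 5 were long and sense. miR-3072-3p, with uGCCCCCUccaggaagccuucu, had 4 reads, against 49 for miR-3072-5p. None of miR-495-3p, miR-495-5p, miR-3072-3p or miR-3072-5p had a long sense read. miR-379 itself was listed with 2 reads of its 5p arm and 1 of its 3p arm, all in WT libraries, where 3 reads over a genotype is also what a count of 0 in miR-379KO allows.

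Cluster reads on gene groups of interest for mesangial cells were counted beside those of all other miRNAs. Of 16 names of matrix and TGF-β genes, among which Ctgf and Ccn2 are the same gene, 3 had cluster reads: Fn1 (fibronectin) had 3 with miR-377-5p and miR-679-3p, Col1a2 had 1 with miR-485-5p, and Col4a1 (a collagen IV chain) had 1 with miR-3072-5p. Other miRNAs had 709 reads with that group. Of 13 genes of the miRNA machinery, Ago3 had 1 read with miR-667-5p (other miRNAs had 35 with the group), and of 11 ER stress genes, Atf6, a sensor of the unfolded protein response, had 1 with miR-494-3p (other miRNAs had 9). Among 6 transcripts of the domain, the lncRNA Meg3 had 1, with miR-667-3p (other miRNAs had 22). These last 3 reads came from WT A. Of 10 genes of mitochondria and redox balance none had a cluster read, and 0 of 510 reads allows a share of up to 0.588%. All other miRNAs together had 11 reads with 3 of these 10 genes, so at this depth a count of 0 in the cluster does not set it apart. Among cell type markers, 5 of 9 mesangial ones were listed as targets of any miRNA, with 99 reads of other miRNAs and 2 cluster reads on Acta2. Of the 99 reads, Acta2 had 70, Vim 14, Tagln 11, Pdgfrb 3 and Des 1, while Pdgfra, Itga8, Gata3 and Thy1 had 0. For podocytes, 3 of 5 markers had 5 reads, and no endothelial, tubule or leukocyte marker had one. The listing of a marker in chimeric reads is not a measure of its expression.

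No cluster miRNA was called between genotypes. In edgeR's quasi-likelihood test on distinct reads, over the 548 miRNAs with at least 10, 0 of 11 cluster miRNAs had an adjusted p under 0.05, and 0% of all miRNAs did. At an unadjusted p under 0.05 there were 1 of the 11 and 30 of the 548 (5.47%), and DESeq2 called 0 of the 548, with 8 at an unadjusted p under 0.05. The 11 members had a median log2 fold change (WT over miR-379KO) of -0.33, beside 0.05 over all miRNAs tested, and 5 of them were above 0. The bulk of each count is short segments, so these fold changes compare numbers of listed reads and not miRNA levels.

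miR-494-3p, at 28.9, 26.7, 44.0 and 95.1 reads per 10000 by library, had the smallest p. Its log2 fold change was -1.48 (SE 0.64, edgeR adjusted p = 0.877), and both miR-379KO libraries were above both WT libraries, with miR-379KO B far above the rest. Of its 127 reads, 75 were listed with AY036118 and 75 with Rn18s-rs5, and a read can be listed with both. miR-667-3p stood at 3.52, 2.05, 4.63 and 12.3 in the same order, with a log2 fold change of -1.67 (SE 0.87, edgeR adjusted p = 0.972). miR-495-5p stood at 6.34, 16.4, 25.4 and 17.6, with a log2 fold change of -1.20 (SE 0.70, edgeR adjusted p = 0.972). In the other direction, miR-679-5p stood at 9.86, 4.11, 2.31 and 1.76, with 1.71 (SE 1.01, edgeR adjusted p = 0.972), and 14 of its 18 reads lay in WT A. miR-487b-5p stood at 4.93, 16.4, 4.63 and 1.76, with 1.40 (SE 1.03, edgeR adjusted p = 0.972). For miR-487b-5p, WT A and miR-379KO A were nearly level. miR-329-5p was listed in WT A (14 reads) and miR-379KO B (3 reads) and in neither other library. The remaining 5 members (miR-541-5p, miR-377-5p, miR-485-5p, miR-3072-5p and miR-667-5p) had log2 fold changes from -0.54 to 0.58, each with a standard error of 0.63 or more.

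For 5 of the 11 members the 2 libraries of one genotype lay on one side of the other 2, which also held for 32.8% of the 548 miRNAs. WT was above for miR-487b-5p and miR-679-5p, and for 21.9% of the 548. It was below for miR-494-3p, miR-495-5p and miR-667-3p, and for 10.9% of the 548. Without WT B, the fit called 3 cluster miRNAs as lower in WT, among 34 of 484 miRNAs called, with the single WT library assumed to vary like the miR-379KO libraries. These were miR-495-5p (log2 fold change -1.96, edgeR adjusted p = 0.0119), miR-377-5p (-1.75, edgeR adjusted p = 0.0212) and miR-494-3p (-1.56, edgeR adjusted p = 0.0219).

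**Figure D5:**
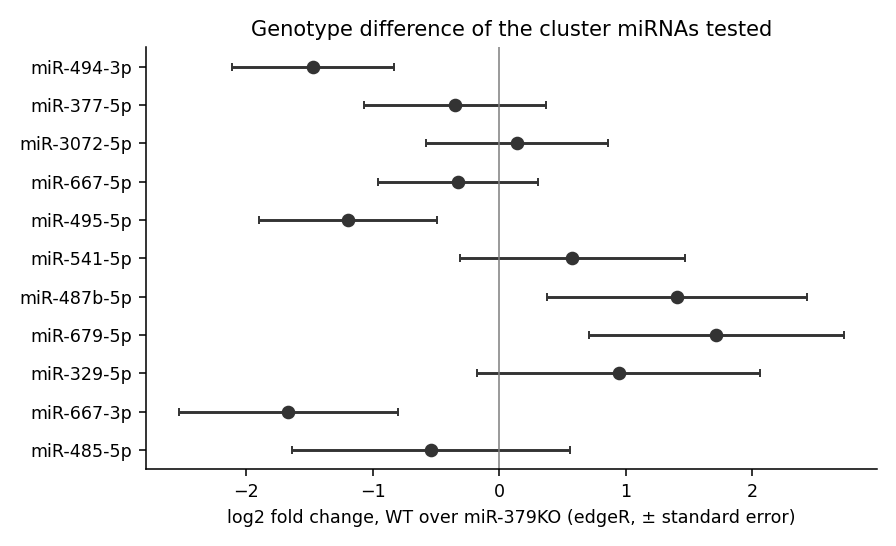
Log2 fold change of WT over miR-379KO from edgeR with a standard error derived from the F statistic of its test (x axis) for the 11 tested cluster miRNAs (rows). The values run from -1.67 for miR-667-3p to 1.71 for miR-679-5p, and none has an adjusted p under 0.05.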

How the data were processed

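AGO2-CLASH hybrids were sequenced as paired reads in 2 WT and 2 miR-379KO libraries. Per the study's methods, the authors merged the mates, set aside merged reads that aligned as a whole to GRCm38.p5 or to GENCODE transcripts (Bowtie2 2.1.0), and ran blastn on both strands against miRBase and GENCODE, keeping non-overlapping miRNA and target segments, which allows very short and antisense miRNA hits. The deposited tables give, per line, a read with its miRNA and transcript, the aligned positions, the count of times the read was sequenced, and a score and a minimum free energy of the pair, whose tool and unit are not given in the sources used here.

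Each distinct read sequence was counted once per miRNA and library, and 0 columns of other samples were found. Numbers per 10000 are shares of distinct chimeric reads, and library totals ran from 4323 to 14197, which sets the precision of each share. Long means 16 nt or more, the seed match bases 2 to 7. Segments with 10 flanking bases on 1 side, or up to 10 on both, were searched in GRCm38.p6 without mismatch. Counts were tested with edgeR 4.0.16 (TMM, quasi-likelihood, at least 10 reads, Benjamini-Hochberg, all miRNAs) in R 4.3.3, DESeq2 1.42.0 being an alternative, and Python 3.11.15 (pandas 2.3.3, scipy 1.17.1) did the rest. The standard error (SE) of an edgeR fold change is its absolute value divided by the square root of the test's F statistic. The scripts were tested on simulated data. Named members had at least 10 reads, a sense segment of at least 18 nt, one of the 3 smallest p in either direction, or were arms of miR-495, miR-377 and miR-3072. Named genes were the 10 most listed, those of long hybrids and list members. The other loci of the fixed blocks, miR-410-5p, miR-770-5p, miR-679-3p and the hybrids of 16 and 17 nt were named after their values were seen. Members and lists were chosen with earlier results of these data known. The targets of some long hybrids are not reported here. Alternatives are given in the closing section.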

Additional observations from a re-analysis of the deposited data

How the results depend on the processing

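No cluster miRNA was called under 11 alternatives, and 102 of 112 alternative fold changes kept their sign and side of the threshold. Leaving out WT B gave 3 calls (0 otherwise, so 0 to 3), as reported, and the lowest adjusted p under every other alternative was 0.526. The sign turned for miR-3072-5p (0.14) with sense segments only (-0.32), with reads collapsed by alignment (-0.17), without WT B (-0.84) and without miR-379KO B (-0.15), for miR-377-5p without WT A (0.55), for miR-541-5p without miR-379KO B (-0.32), and for miR-667-5p in reads with no one-sided genome match (1.82). Keeping segments of at least 16 nt left 0 members to test. In reads with no one-sided genome match, 2 members were tested, and 2 of 115 miRNAs were called, none of them a member. With sense segments only, 7 members were tested, and with 1 library left out 8 to 10. Over all miRNAs, 0 were called under every other alternative that kept the 4 libraries. Leaving out 1 library in turn, the fold changes ran from -0.84 to 0.97 for miR-3072-5p, from -1.75 to 0.55 for miR-377-5p and from -0.32 to 2.01 for miR-541-5p. With no turn of sign they ran from -1.96 (without WT B) to -0.32 (without WT A) for miR-495-5p, from 0.44 (without WT B) to 2.38 (without WT A) for miR-487b-5p, from -1.94 (without miR-379KO A) to -0.88 (without miR-379KO B) for miR-494-3p, from -0.51 (without miR-379KO A) to -0.22 (without miR-379KO B) for miR-667-5p, and from 0.08 (without miR-379KO A) to 5.43 (without miR-379KO B, where no miR-379KO read was left) for miR-329-5p. With the library letter as a replicate block, 0 members were called and the fold changes ran from -1.46 to 1.501; the letters are not shown to pair the libraries (correlation of deviations -0.059 over 548 miRNAs).

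The cluster's share per 10000 (WT 165, miR-379KO 209) was 26.7 and 61.4 with segments of at least 16 nt and 108.3 and 126.9 with both parts in sense. It was 190.1 (SD 29.75) and 288 (SD 74.92) with perfect segments, and 83.6 and 81.5 without one-sided genome matches. With 1 library left out it ran from 147 to 183 in WT and from 187 to 231 in miR-379KO. The long sense share (4.24% and 9.99%) was 6.99% and 14.7% in reads listed with none of the 6 frequent genes, and by left-out library it ran from 2.87% to 5.62% and from 7.63% to 12.3%. The seed match share (11.7% and 15.7%) was 21.1% and 32.6% in those reads and 16.9% and 23.9% on the transcript strand. In WT and miR-379KO it was also 11.55% and 13.9% as deposited, 9.76% and 11.4% for bases 2 to 8, and 13.63% and 17.9% with reads collapsed by alignment. By left-out library it ran from 8.99% to 14.4% and from 15.3% to 16.05%. The cause of these shifts was not tested. The reads without one-sided matches, with none of the 6 genes, collapsed or on the transcript strand were chosen after seeing the data. Cluster counts reached at most 54 reads per miRNA and library, and groups of 2 libraries are too small to check for outlying samples.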
